A study of Drosophila melanogaster with 11 samples.

Results

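The vacuolar ATPase (V-ATPase) genes of Drosophila melanogaster were examined in S2 cells, a cultured hemocyte-like line. They were taken as every gene whose listed symbol begins with Vha, which gave 33 of the 16509 genes in the RNA files, with 143 of the 78680 listed exons. By subunit they were 13 genes for the 8 subunits of V1, 18 genes for the 5 subunits of V0, and 2 genes for accessory proteins. All 33 matched a current name table, in which VhaM8.9 is now called ATP6AP2.

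The V-ATPase is a rotary proton pump that acidifies lysosomes, endosomes and secretory vesicles. Its V1 part lies in the cytosol and hydrolyses ATP, and its V0 part lies in the membrane and carries the protons across it. V1 can detach from V0 and bind again, which switches the pump on and off. Flies carry several genes for some subunits, and a number of these copies are known mainly from the testis or from other single tissues.

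The RNA-seq libraries were made from polyA RNA of S2 cells with dTet knockdown (2 libraries) and of dTet control S2 cells (2 libraries). dTet is the fly Tet dioxygenase gene, whose enzyme family oxidises methylcytosine to hydroxymethylcytosine. In hMeRIP-seq, RNA fragments carrying hydroxymethylcytosine are enriched with an antibody and sequenced. It was applied to total RNA of 1 sample of dTet CRISPR S2 cells and 1 sample of yellow CRISPR S2 cells, yellow being a pigmentation gene. All groups were the same line grown in serum-free medium, and the labels name neither the knockdown reagent nor whether a CRISPR line is a clone. They also do not say whether the replicates of a group were separate cultures, so the p-values below may measure technical spread.

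Levels are given as signal, the mean over the 40-bp bins of a gene's exons of the reads per bin, scaled by 1 factor per library, so signal is a level per length. A single read in a single bin was worth 0.372 and 0.477 signal in the knockdown libraries, against 0.340 and 0.390 in the control libraries. Relative depth was 1.28 and 1 in the knockdown libraries, against 1.4 and 1.22 in the control libraries. Over these libraries 9156 to 9708 genes had a signal above 0. dTet itself had a signal of 4.88 and 6.60 in the knockdown libraries, against 6.93 and 8.01 in the control libraries. The groups did not overlap, but the fall in dTet RNA was partial. Of the 6050 genes expressed by the threshold given below, 17.4% were lower in the knockdown without overlap. As a check of the line, 9 of 10 hemocyte markers were expressed, and all 10 had a median signal of 9.23 and a range of 0.263 (NimC1) to 74.6 (Cg25C). Among markers of other tissues, 1 of 11 testis germline genes (twe, 1.32), 1 of 5 neuron and glia genes (elav, 2.07), 0 of 5 muscle genes and 0 of 4 renal tubule genes were expressed. Another testis germline gene, mia, lay just under the threshold, at a mean signal of 0.930. These are bulk samples, in which fewer cells of a type and less RNA per cell cannot be told apart.

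A gene was counted as expressed at a mean signal of 1 or more over the 4 libraries. By this threshold 17 of the 33 V-ATPase genes (51.5%) were expressed, against 36.6% of all genes. They were 8 of the 13 V1 genes, 7 of the 18 V0 genes and both accessory genes, and every V1 and V0 subunit had at least 1 expressed gene. The other 16 genes are called silent here, a word that includes genes with a few reads. Of these, 8 were at 0 in all 4 libraries, which is 24.2% of the V-ATPase genes, against 33.7% of all genes. No V-ATPase gene lay near the threshold, since the lowest expressed gene (VhaM9.7-c) averaged a signal of 2.36 and the highest silent gene (Vha68-1) averaged 0.365. The plot of levels by subunit shows this gap in each library.

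**Figure D1:**
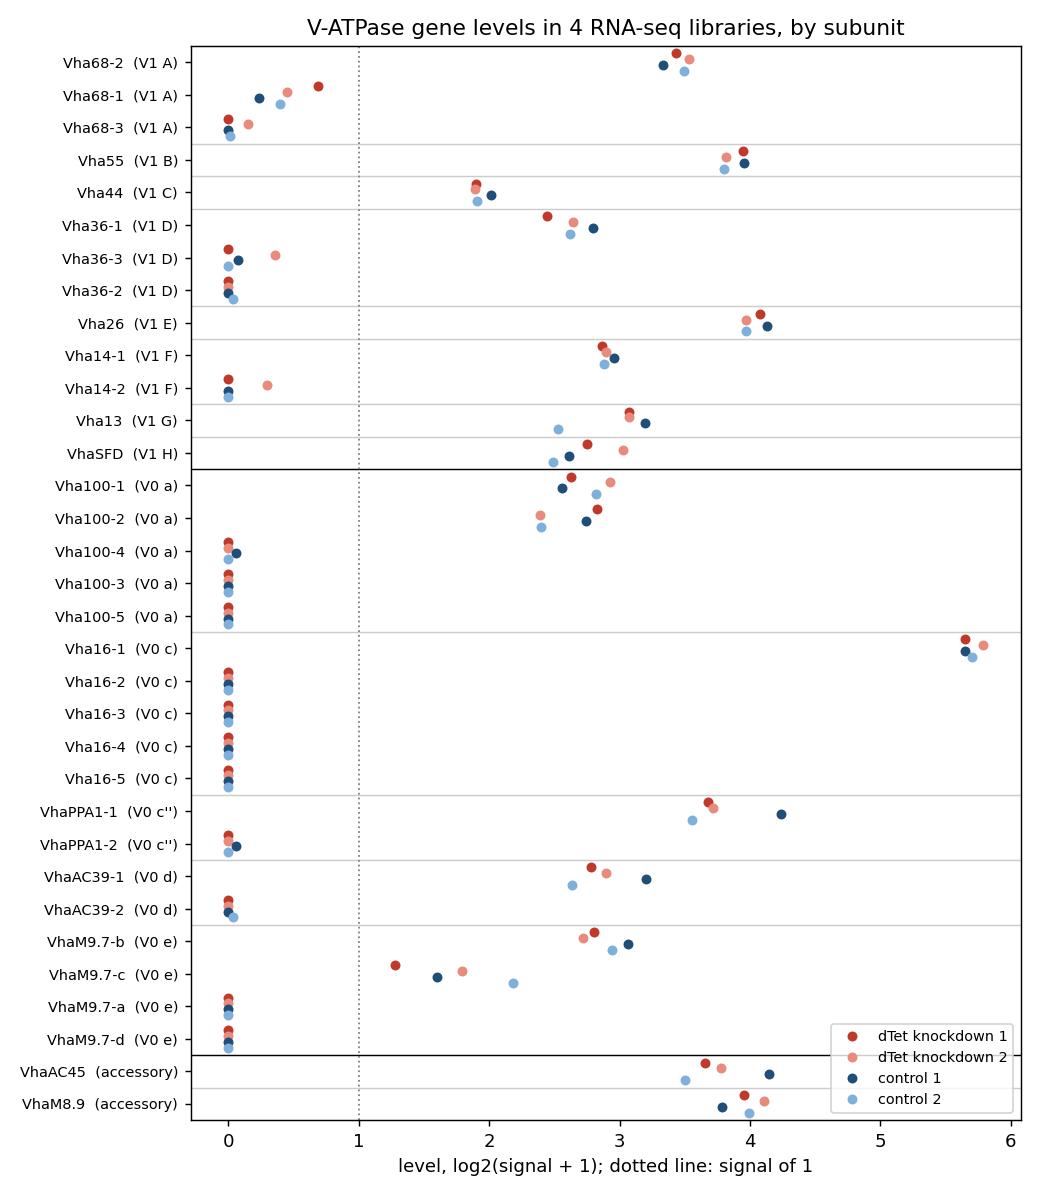
Level of each of the 33 V-ATPase genes in each library, as log2(signal + 1), grouped by subunit, with V1 above V0 and the accessory genes last. Each point is 1 library (dTet knockdown in red, control in blue), and the dotted line marks a signal of 1. Vha16-1 stands alone at the high end, and 16 genes sit left of the line in every library.

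The catalytic head of V1 is built of the A and B subunits, which together bind and split ATP. Subunit A came almost wholly from Vha68-2 (chr2L:12974321-12978606, dm3), with a signal of 9.79 and 10.6 in the knockdown libraries, against 9.09 and 10.3 in the control libraries. Vha55 (chr3R:8449483-8453550), the only gene for subunit B, had 14.5 and 13.1 signal in the knockdown libraries, against 14.5 and 13.0 in the control libraries. Both genes varied as much within a group as between groups. Subunits A and B are known to stand in equal number in the pump as proteins, and the mean RNA signal of Vha55 was 1.39 times that of Vha68-2. This ratio holds for means over all listed exons. In Vha68-2 the exons of 977, 697 and 630 bp averaged 10.9, 7.89 and 19.2. In Vha55 those of 1261 and 1142 bp averaged 13.0 and 17.7.

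The central stalk of V1, which turns within the head, holds the D and F subunits. Vha36-1 (chr2R:11428939-11430002), for subunit D, had a signal of 4.45 and 5.26 in the knockdown libraries, against 5.94 and 5.16 in the control libraries. For subunit F, Vha14-1 (chr2R:11566930-11567588) had 6.28 and 6.45 signal in the knockdown libraries, against 6.78 and 6.36 in the control libraries. Both are listed as a single exon, and for both the groups overlapped.

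The outer stalks of V1 hold the E and G subunits, and the C and H subunits connect or regulate V1 at the membrane. Vha26 (chr3R:1417484-1421077), for subunit E, was the highest V1 gene, with a signal of 15.9 and 14.7 in the knockdown libraries, against 16.5 and 14.7 in the control libraries. Vha13 (chr3R:15468739-15470107), for subunit G, had 7.41 and 7.43 signal in the knockdown libraries, against 8.18 and 4.78 in the control libraries. The knockdown values of Vha13 lay between the 2 control values, which differed by 0.67 on the log2(signal + 1) scale. Vha44 (chr2R:12212317-12224141), for subunit C, was the lowest expressed V1 gene by its mean over all listed exons. It had 2.73 and 2.71 signal in the knockdown libraries, against 3.04 and 2.75 in the control libraries. Its longest exon, of 1251 bp, had 7.21 and 6.89 in the knockdown libraries, against 8.72 and 8.19 in the control libraries. The next longest, of 981 bp, had only 0.179 and 0.210, against 0.0544 and 0.0468. VhaSFD (chr2L:16722882-16727825), for the regulatory subunit H, had a signal of 5.74 and 7.13 in the knockdown libraries, against 5.11 and 4.62 in the control libraries. For VhaSFD both knockdown libraries were above both control libraries, and for Vha44 both were below them.

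In V0 the proton path runs between subunit a and a ring of c-type subunits. Vha16-1 (chr2R:2512746-2520594), for the ring subunit c, was the highest of all V-ATPase genes, with a signal of 49.2 and 54.2 in the knockdown libraries, against 49.2 and 51.1 in the control libraries. It ranked 100 among all 16509 genes by mean signal and was 3.30 times as high as the next V-ATPase gene, Vha26. Several copies of subunit c are known to sit in each ring. VhaPPA1-1 (chr3R:10728051-10729782), for the ring subunit c'', had a signal of 11.8 and 12.1 in the knockdown libraries, against 17.9 and 10.8 in the control libraries. Its knockdown values lay together, between the 2 control values.

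Subunit a was the clearest case of 2 genes expressed side by side. Vha100-1 (chr3R:24956914-24963701) had a signal of 5.19 and 6.59 in the knockdown libraries, against 4.91 and 6.04 in the control libraries. Vha100-2 (chr3R:14216044-14224890) had 6.10 and 4.25 signal in the knockdown libraries, against 5.70 and 4.27 in the control libraries. The leading gene therefore changed between libraries of the same group: Vha100-1 made up 46.0% and 60.8% of the subunit a signal in the knockdown libraries, against 46.1% and 58.6% in the control libraries. The summed signal of the subunit was steadier, at 11.3 and 10.8 in the knockdown libraries, against 10.6 and 10.3 in the control libraries. An overlap with another gene touches this balance, because an exon with 11.9% of the bins of Vha100-1 overlaps an exon of CG14512. The length of the overlap was not measured, and CG14512 had a mean signal of 0.662. That exon of Vha100-1 had a signal of 13.6 and 15.0 in the knockdown libraries, against 15.5 and 13.4 in the control libraries. Without it Vha100-1 had a signal of 4.05 and 5.45 in the knockdown libraries, against 3.47 and 5.04 in the control libraries. The files carry no strand, so reads of overlapping genes could not be separated.

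Subunit e, a small membrane protein of V0, also had 2 expressed genes. VhaM9.7-b (chr3L:21532961-21534314) had a signal of 5.99 and 5.6 in the knockdown libraries, against 7.36 and 6.67 in the control libraries, so both knockdown values were below both control values. VhaM9.7-c (chr3L:4186017-4186864), the lowest expressed V-ATPase gene, had 1.42 and 2.47 signal in the knockdown libraries, against 2.02 and 3.53 in the control libraries. VhaM9.7-b held 80.8% and 69.4% of the subunit e signal in the knockdown libraries, against 78.4% and 65.4% in the control libraries. In every library it was the higher of the pair. Subunit d, which couples V0 to the stalk, came from VhaAC39-1 (chrX:3774780-3776999), with a signal of 5.87 and 6.43 in the knockdown libraries, against 8.21 and 5.21 in the control libraries.

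Both accessory genes were expressed at the level of the higher V1 genes. VhaAC45 (chr2R:5095065-5097278), which encodes the accessory protein Ac45, had a signal of 11.6 and 12.7 in the knockdown libraries, against 16.7 and 10.3 in the control libraries. VhaM8.9 (chr3R:5086359-5088311), the fly gene for the accessory protein known in mammals as the prorenin receptor, had 14.5 and 16.3 signal in the knockdown libraries, against 12.8 and 15.0 in the control libraries. The groups overlapped for both.

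Ordered by mean signal over the 4 libraries, the expressed genes spanned 21.6-fold, with Vha16-1 at 50.9 ± 2.36 and VhaM9.7-c at 2.36 ± 0.891 (SD, n = 4). Of the 16 neighbouring pairs in that order, 13 had overlapping ranges. The 3 steps larger than the spread over libraries were Vha16-1 above Vha26, Vha68-2 above Vha13, and Vha100-2 above Vha44. The last of these holds for means over all listed exons. The longest exon of Vha44 averaged 7.75, above the gene mean of Vha100-2 (5.08). Below Vha16-1, Vha26, VhaM8.9, Vha55, VhaPPA1-1, VhaAC45 and Vha68-2 thus formed a run of neighbours with overlapping ranges, with means between 15.4 and 9.93. A lower run held Vha13, Vha14-1, VhaAC39-1, VhaM9.7-b, Vha100-1, VhaSFD, Vha36-1 and Vha100-2, with means between 6.95 and 5.08. The number of reads in bins behind a value ran between 84 (VhaM9.7-c in knockdown 1) and 10713 (Vha16-1 in control 1), and a read that spans several bins can count in each.

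V1 and V0 genes had similar middle levels. The median signal of the 8 expressed V1 genes was 6.85 and 7.28 in the knockdown libraries, against 7.48 and 5.76 in the control libraries. For the 7 expressed V0 genes the median signal was 5.99 and 6.43 in the knockdown libraries, against 7.36 and 6.04 in the control libraries. The log2 ratio of the V1 median to the V0 median was 0.19 and 0.18 in the knockdown libraries, against 0.02 and -0.07 in the control libraries, with a mean of 0.08 ± 0.13 (SD, n = 4). The ratio was thus above 0 in 3 of 4 libraries and smaller than its spread. By subunit rather than by gene, adding the genes of each subunit, the median was 6.85 and 7.28 for V1 against 11.3 and 10.8 for V0 in the knockdown libraries. In the control libraries it was 7.48 and 5.77 for V1 against 10.6 and 10.3 for V0. On that count V1 stood at 0.607 and 0.671 of V0 in the knockdown libraries, against 0.703 and 0.560 in the control libraries.

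A single gene carried most of the V0 signal. Vha16-1 alone made up 57.5% and 59.1% of it in the knockdown libraries, against 51.6% and 58.3% in the control libraries. The summed signal of V0 was 85.6 and 91.7 in the knockdown libraries, against 95.4 and 87.6 in the control libraries. Summed V1 signal was 67.4 and 68.3 in the knockdown libraries, against 69.4 and 61.9 in the control libraries. All 33 genes together summed to a signal of 179 and 189 in the knockdown libraries, against 194 and 175 in the control libraries, so the groups overlapped.

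Of the 13 subunits of V1 and V0, 8 have more than 1 gene, and in 6 of these a single gene was expressed. In subunit A, Vha68-1 was the only silent gene with reads in every library, at a signal of 0.606 and 0.368 in the knockdown libraries, against 0.175 and 0.312 in the control libraries. These values rested on 114 and 54 reads in bins in the knockdown libraries, against 36 and 56 in the control libraries. Both knockdown values were above both control values, as in 13.2% of the expressed genes, but the gene lay under the level threshold and was not tested. Vha68-2 exceeded Vha68-1 by 16.1-fold and 28.8-fold in the knockdown libraries, against 52.0-fold and 32.9-fold in the control libraries. The signal of Vha68-1 was uneven along the gene. Its exon of 697 bp, picked after its values were seen, had 0 and 1.27 in the knockdown libraries, against 0.227 and 0 in the control libraries. The exon of 734 bp, picked likewise, had 1.33 and 0 in the knockdown libraries, against 0.429 and 0.863 in the control libraries. Vha68-1 and Vha68-2 both have exons of 977 and 697 bp. Whether reads of near-identical stretches were placed on the other copy was not tested. The remaining subunit A gene, Vha68-3, had a signal of 0 and 0.108 in the knockdown libraries, against 0 and 0.0063 in the control libraries.

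The other multi-gene V1 subunits had single strays. Vha36-3, a second gene for subunit D, had a signal of 0 and 0.280 in the knockdown libraries, against 0.05 and 0 in the control libraries. For subunit F, Vha14-2 had 0 and 0.227 signal in the knockdown libraries, against 0 in both control libraries. In these 2 genes the larger value came from knockdown 2 and from 20 reads in bins each. Vha36-2, the remaining subunit D gene, was above 0 in control 2 alone, at a signal of 0.0237. The leading gene accordingly held 94.2% to 98.1% of the signal in subunit A (Vha68-2), 94.9% to 100% in subunit D (Vha36-1) and 96.6% to 100% in subunit F (Vha14-1).

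In V0 the silent genes were nearer to 0. The 4 other genes for subunit c (Vha16-2, Vha16-3, Vha16-4 and Vha16-5) were at 0 in all libraries, beside the signal of about 50.9 of Vha16-1. So were Vha100-3 and Vha100-5 of subunit a, and VhaM9.7-a and VhaM9.7-d of subunit e. Vha100-4 (0.0388) and VhaPPA1-2 (0.0400) had signal in control 1 alone, and VhaAC39-2 (0.0244) in control 2 alone. Single-library signal of this kind was common, with 1300 genes above 0 in 1 library only, 474 of them in control 1. Some silent genes lie close to an expressed copy. Vha68-3 begins 179 bp after Vha68-2, Vha100-4 ends 518 bp before Vha100-2, and VhaPPA1-2 lies 2053 bp from VhaPPA1-1. The only listed exon of VhaPPA1-2 overlaps an exon of CG3817, and the length of that overlap was not measured. Vha68-1, the highest silent gene, lies 22.2 kb from Vha68-2.

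Signal was uneven along most expressed genes. Among the 14 expressed genes with 3 or more groups of overlapping exons, the first group in genome order was higher than the last in all libraries in 7, and the last was higher in the other 7. In 8 of the 14 the difference was over 2 on the log2 scale in every library. The median size of this difference was 2.77 and 2.32 in the knockdown libraries, against 2.79 and 2.78 in the control libraries. In Vha16-1 the longest exon, of 2432 bp, had a signal of 56.2 and 62.6 in the knockdown libraries, against 57.8 and 58.2 in the control libraries. Its exon at the opposite end had only 0.496 and 0.635 signal in the knockdown libraries, against 0.680 and 2.21 in the control libraries. For Vha68-2 the exon of 630 bp at one end had a signal of 18.4 and 17.5 in the knockdown libraries, against 21.3 and 19.5 in the control libraries, whereas the exon at the other end had 0 in 3 libraries and 1.17 in control 2. The level of a gene is therefore mainly that of its long exons, and of the 80 exon groups of expressed genes 4 were at 0 in all libraries.

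**Figure D2:**
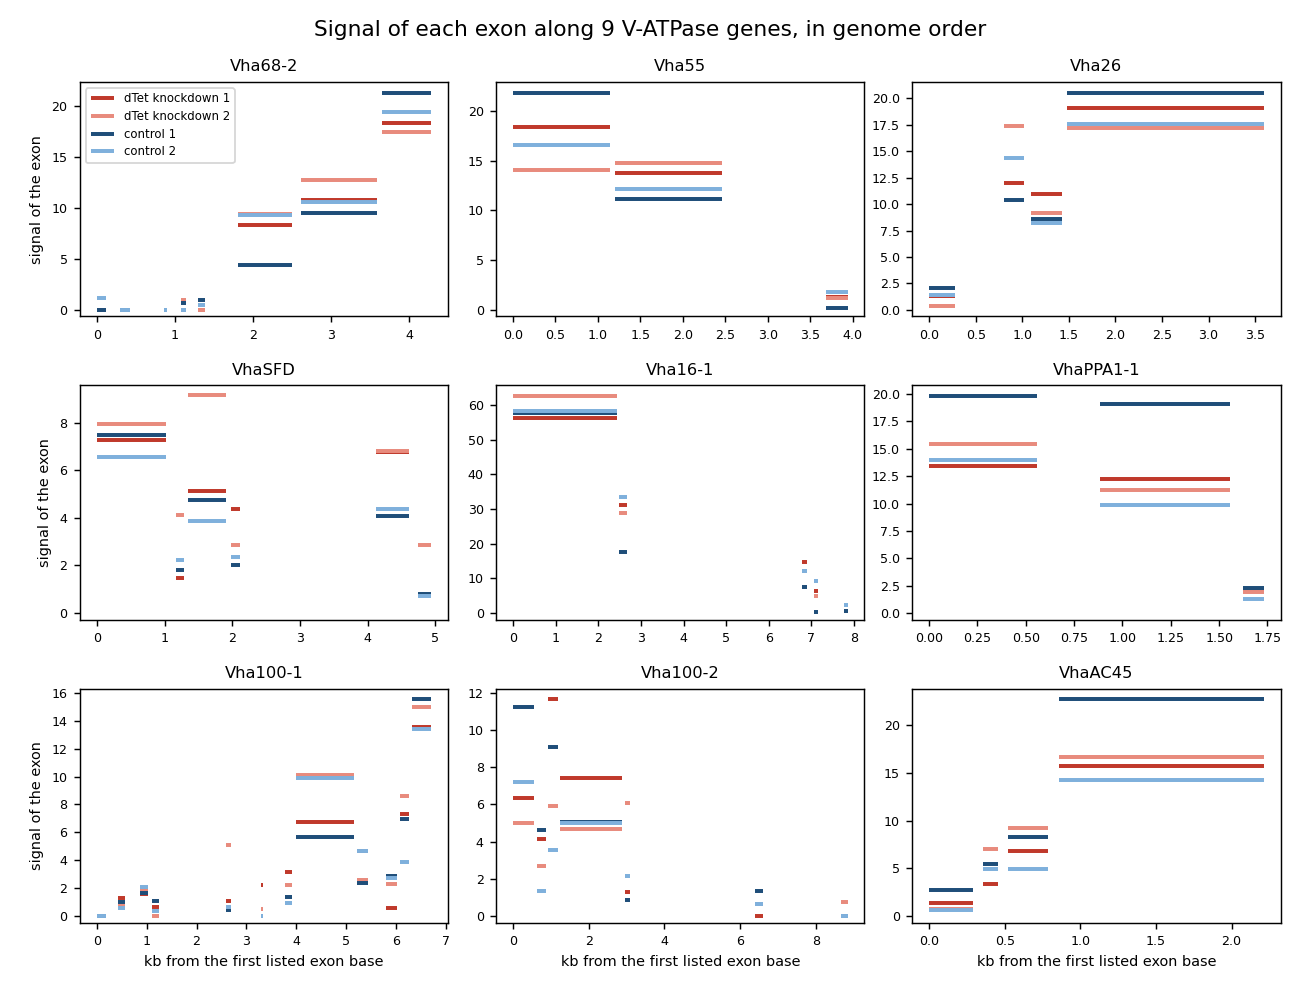
Signal of each exon group along 9 expressed V-ATPase genes, against distance in kb from the first listed exon base in genome order, with 1 horizontal line per library (dTet knockdown in red, control in blue). Signal is concentrated at one end in most of the genes, as in Vha16-1, and the control 1 line lies above the other libraries in the long exons of VhaPPA1-1 and VhaAC45.

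Whether dTet knockdown moved V-ATPase transcripts was tested with limma on log2(signal + 1) over the 6050 genes expressed by the threshold above. No V-ATPase gene was called in either direction: 0 of 17 had an adjusted p under 0.05, against 0% of the 6050 genes. At an unadjusted p under 0.05 the count was 0 of 17, against 4.05% of all genes tested (245 genes). The log2 change was above 0 in 8 genes and below 0 in 9, with a median of -0.03, and the median over all genes tested was also -0.03. By part, 4 V1 genes were above 0 and 4 below (median -0.01), 3 V0 genes were above and 4 below (median -0.08), and the accessory genes were split 1 and 1.

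The largest difference upward was that of VhaSFD, at 0.34 ± 0.20 (SE, n = 2 each) on the log2 scale, with a 95% interval of -0.12 to 0.80 and an unadjusted p of 0.130 in limma. The largest downward was that of VhaM9.7-c, at -0.35 ± 0.28, with an interval of -1.0 to 0.29 and an unadjusted p of 0.245 in limma. For its partner VhaM9.7-b the difference was -0.24 ± 0.19, with an interval of -0.67 to 0.19. All 17 genes had an adjusted p of 0.9995 in limma. Vha16-1 was measured most closely, at 0.04 with an interval of -0.32 to 0.41, and the intervals of all 17 extended between 0.37 and 0.65 to each side. These 95% intervals are unadjusted. With 2 libraries a group, a change smaller than a gene's own half-interval was not detectable in it even without adjustment. Calls were made on p adjusted over 6050 genes, so a call needed a larger change than the half-interval. Over all genes tested the smallest unadjusted p in limma was 6.29e-05, and the smallest adjusted p was 0.206.

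The values of the remaining genes were close to 0. In V1 they were 0.21 for Vha13, 0.07 for Vha68-2, 0.00082 for Vha55, -0.03 for Vha26, -0.04 for Vha14-1, -0.07 for Vha44 and -0.16 for Vha36-1 on the log2 scale. In V0 they were 0.09 for Vha100-1, 0.04 for Vha100-2, -0.08 for VhaAC39-1 and -0.20 for VhaPPA1-1. VhaM8.9 had 0.14 and VhaAC45 had -0.11. Without overlap of the 2 groups, 1 of 17 genes was higher in the knockdown (VhaSFD), against 13.2% of all genes tested. Of those lower in the knockdown without overlap there were 2 of 17 (Vha44 and VhaM9.7-b), against 17.4% of all genes tested. Counts this small cannot be told apart from the shares over all genes, and no test was made.

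The spread between the control libraries was larger than the change for most V-ATPase genes. The difference between controls exceeded the change in 15 of 17 genes, and it exceeded the difference between the knockdown libraries in 12 of 17. Control 1 gave the highest value in 10 of 17 genes, knockdown 2 in 5, and knockdown 1 and control 2 in 1 each. A difference between 2 single libraries varies more than one between 2 group means. These counts were not taken over all genes tested, so they may not be particular to V-ATPase genes. Control 1 stood above control 2 by 0.68 on the log2 scale in VhaPPA1-1, 0.67 in Vha13, 0.64 in VhaAC45 and 0.57 in VhaAC39-1. Without control 1 the change of Vha13 was 0.54 (unadjusted p 0.0381, adjusted p 0.998 in limma), and without control 2 it was -0.12. Without control 2 the change of VhaPPA1-1 was -0.54 (unadjusted p 0.0267, adjusted p 0.704 in limma), and without control 1 it was 0.14. Values for VhaAC45 were 0.21 without control 1 and -0.43 without control 2, and for VhaAC39-1 they were 0.20 and -0.37. The direction of these 4 genes was thus set by which control library was used.

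**Figure D3:**
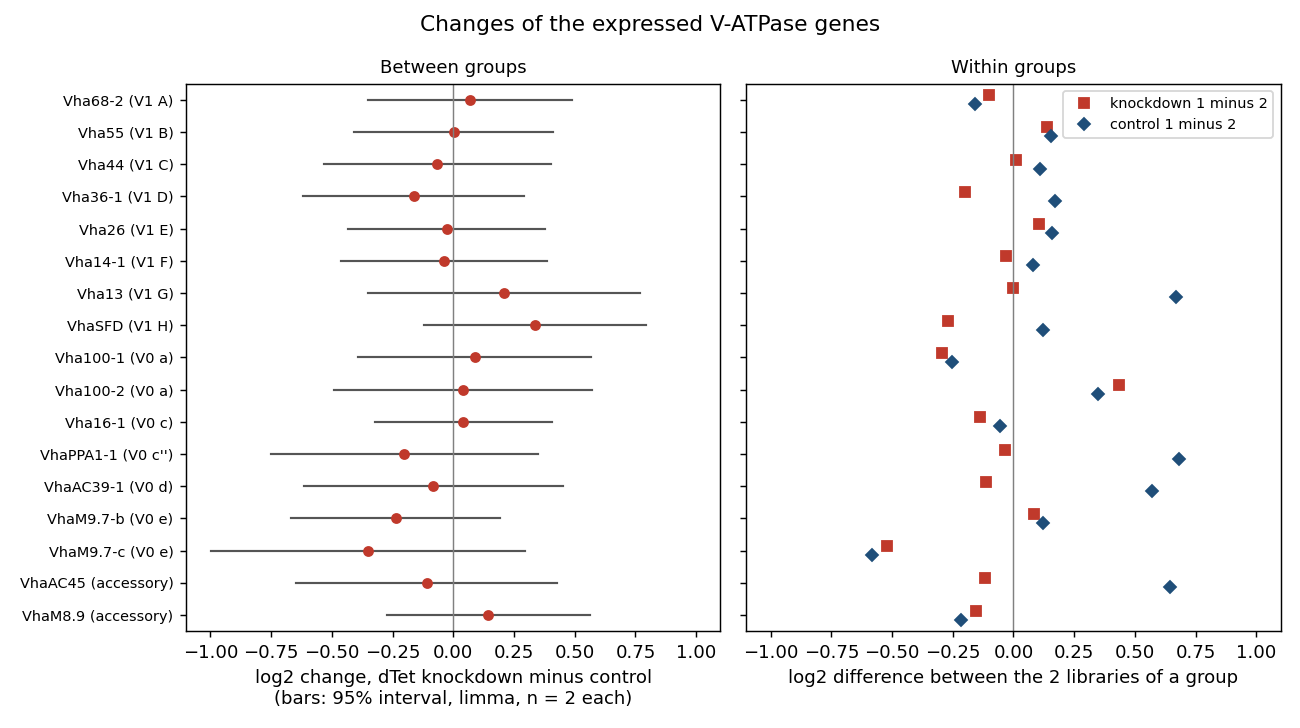
Left, log2 change of the 17 expressed V-ATPase genes, dTet knockdown minus control, with 95% intervals from limma (n = 2 libraries each). Right, difference on the same scale between the 2 libraries of a group (knockdown as red squares, control as blue diamonds). All intervals on the left cross 0, and on the right control 1 lies above control 2 by over 0.5 for Vha13, VhaPPA1-1, VhaAC39-1 and VhaAC45.

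A comparison exon by exon, in which each exon group counts once whatever its length, was added after the data were seen. Of 64 V-ATPase exon groups none was called by limma, and 0 had an unadjusted p under 0.05, against 3.96% of the 23023 exon groups tested (911). Their log2 change was above 0 in 39 and below 0 in 25, with a median of 0.18, against a median of 0.02 over all exon groups tested, whereas the median by gene was -0.03. The exon groups of a gene share their reads' source and are not replicates, and the cause of this difference was not tested. The smallest unadjusted p in limma was 0.0567, for an exon of Vha100-1 with a log2 change of 1.21 and an interval of -0.04 to 2.47. Within VhaSFD the exon of 478 bp, also picked after its values were seen, had a signal of 6.76 and 6.83 in the knockdown libraries, against 4.08 and 4.39 in the control libraries, while the longest, of 1014 bp, had 7.29 and 7.93 in the knockdown libraries, against 7.48 and 6.56 in the control libraries. The separation of the groups in VhaSFD was thus not present in its longest exon.

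Genes that assemble or work beside the pump were also without a call by limma. The assembly and regulation list had 5 tested genes of 6 in the files (CG31030 was at 0), 3 above 0 and 2 below, with a median log2 change of 0.12. Rbcn-3B, a subunit of the rabconnectin complex, the counterpart of the yeast RAVE assembly complex, had a signal of 4.49 and 4.16 in the knockdown libraries, against 3.38 and 3.50 in the control libraries, a log2 change of 0.26 (unadjusted p 0.217 in limma). CG7071, listed as the fly form of the yeast assembly factor VMA12, had a log2 change of -0.22. The lysosome list had 11 tested genes of 12 (Trpml was at 0), 7 above 0 and 4 below, with a median of 0.04, and its lowest p belonged to the protease genes cathD (-0.25) and Cp1 (-0.18). Of 11 genes of the HOPS tethering complex and the Rag module, which act at the lysosome surface, 5 were above 0 and 6 below, with a median of -0.00. RagC-D, a Rag GTPase, had 2.02 and 2.03 signal in the knockdown libraries, against 3.36 and 2.58 in the control libraries, a log2 change of -0.38 (unadjusted p 0.115 in limma), and CG32350, the fly Vps11, had 0.29.

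The mitochondrial ATP synthase, the related rotary enzyme that makes ATP, was set beside the V-ATPase for level. Its 12 genes had a median signal of 14.7, against 6.47 for the 17 expressed V-ATPase genes and 2.95 for all expressed genes. They split 6 and 6 in direction, with a median log2 change of -0.02, and the lowest p belonged to ATPsynG (-0.25, listed under an older symbol) and ATPsyn-Cf6 (-0.20). The sum of their signal was 152 and 197 in the knockdown libraries, against 205 and 152 in the control libraries. Over the expressed genes of each list the median signal was 2.26 for the assembly list, 5.80 for the lysosome list and 2.49 for the HOPS and Rag list. Hemocyte markers, the list for the cell line itself, had 2 of 9 tested genes above 0 and 7 below, with a median log2 change of -0.17. Of these Pxn, a peroxidasin, had 0.904 and 1.29 signal in the knockdown libraries, against 2.42 and 2.46 in the control libraries, a log2 change of -0.72 (unadjusted p 0.0142, adjusted p 0.9995 in limma). He, a hemocyte surface protein, had a log2 change of 0.51. The part of this difference in the V-ATPase values was not tested.

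**Figure D4:**
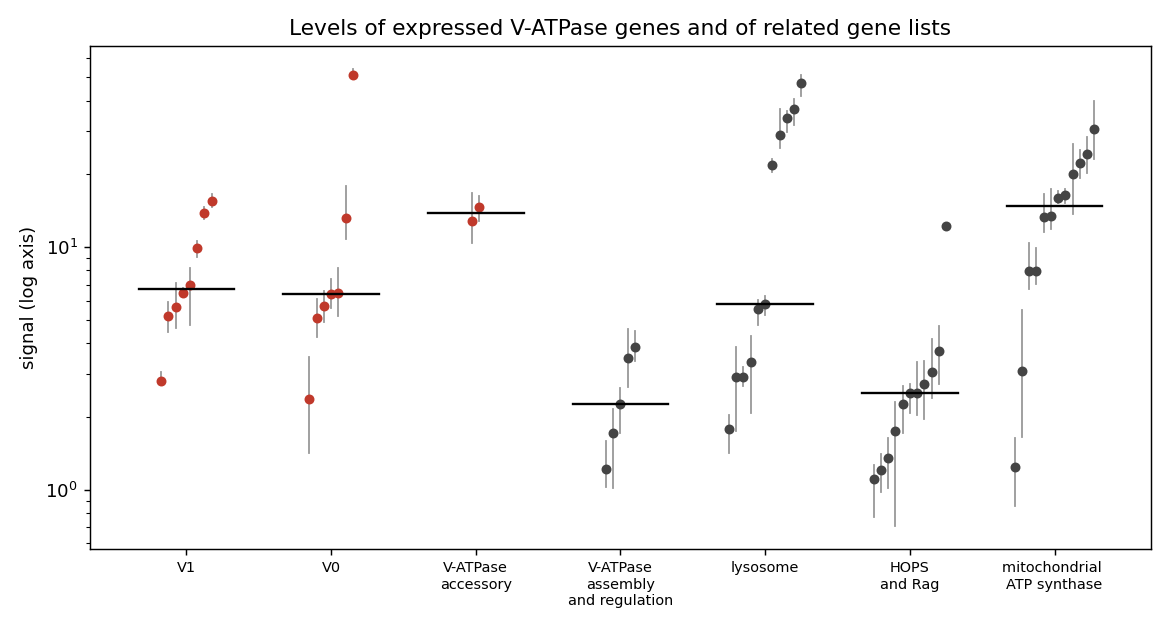
Mean signal over the 4 libraries of each expressed gene (points, on a log axis), with its range over libraries (thin lines) and the median of the expressed genes of each group (black bars). V-ATPase genes are in red by part, related lists are in grey, and Vha16-1 is the single V0 point near 50.9.

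No hydroxymethylcytosine peak lay in a V-ATPase gene. Of the 33 genes, 0 had a peak touching an exon in the dTet CRISPR list, against 7.8% of the 6050 expressed genes (472), and 0 had one in the yellow CRISPR list, against 5.62% (340). At those shares 17 expressed genes would hold 1.33 genes with a peak in the dTet CRISPR list and 0.955 in the yellow CRISPR list, so the count of 0 is close to the background. Peaks within introns were also absent from the V-ATPase genes in both lists. With 1 sample per line the difference between the CRISPR lines has no replicate check, and no test was made. The dTet CRISPR list held 964 peaks, 591 of them on the assembled chromosome arms, and the yellow CRISPR list held 1018, with 479 on the arms.

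Peak genes differed from V-ATPase genes in length. The median exonic length was 2.01 kb for the expressed V-ATPase genes, against 4.14 kb for expressed genes with a dTet CRISPR peak and 1.91 kb for those without one. In the yellow CRISPR list the medians were 4.56 kb for genes with a peak and 1.93 kb for those without. In level the expressed V-ATPase genes had a median signal of 6.47, beside 6.03 and 5.71 for genes with a peak in the dTet CRISPR and the yellow CRISPR list. For expressed genes without a peak the medians were 2.81 in the dTet CRISPR list and 2.86 in the yellow CRISPR list. The background shares of genes with a peak were not matched for length or level. Among the 100 genes with a mean signal at or above that of Vha16-1, 16 had a dTet CRISPR peak and 11 a yellow CRISPR peak.

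The nearest peaks lay kilobases away. In the dTet CRISPR list the closest lay 5.86 kb from Vha16-1, at chr2R:2506388-2506890 in an exon of jing, and Vha16-1 was the only V-ATPase gene with a peak of that list within 10 kb. The yellow CRISPR list had none within 10 kb of any of them, and its closest peak lay 13.0 kb from Vha26, at chr3R:1434095-1434611 in exons of Rga and CR43628. A dTet CRISPR peak covered the same place at chr3R:1434040-1434772. The median distance to the nearest peak was 92.4 kb in the dTet CRISPR list and 117 kb in the yellow CRISPR list.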

How the data were processed

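Per the submitters' processing notes, the authors aligned reads with BWA to dm3 and called peaks with MACS 1.4. The counter, annotation, peak threshold and use of input are not given in the sources used here. The deposited RNA files list exons with a signal, read from the values as a mean of reads per 40-bp bin times a library factor: 100% of the values checked were whole reads within 0.05. The target of that scaling is not given in the sources used here, which leaves absolute depth unknown. Peaks come as start and end positions alone in the deposited lists, with no other unit. Exons of a gene that overlap were grouped, the longest stood for its group, and gene signal was the bin-weighted mean. Because the values are coverage, no count test was used. The dTet knockdown libraries were set against the controls in limma 3.58.1 (R 4.3.3; lmFit, eBayes with trend, two-sided, Benjamini-Hochberg) on log2(signal + 1), so changes of low genes are understated. The procedure was tested on simulated data with independent noise for each gene, so shifts shared by a whole library were not tried. Peaks touching an exon by 1 bp were counted. Members and lists were chosen with earlier results of these data known. Every Vha gene is accounted for, and in each related list the 2 genes with the smallest p are named. The other 5 samples, promoter sequences and proteins were not used here. The alternatives were another pseudocount, level threshold, exon rule, centring, variance model, peak overlap, the replicate block and each library left out.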

Additional observations from a re-analysis of the deposited data

How the results depend on the processing

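No V-ATPase gene and no gene of the related lists was called under any alternative tried. The count of 17 expressed genes was also the count at thresholds of 0.5 and 2, with overlapping exons kept, on unshared exons and without any 1 library. The log2 ratio of V1 to V0 medians lay between 0.04 and 0.19. No V-ATPase gene held a peak under any overlap rule. The median log2 change of the 17 genes was -0.03, -0.11 without control 2 and 0.04 without control 1, and the cause was not tested. With the replicate number as a block it was -0.03 and 0 genes were called. The labels do not say what a replicate number stands for, so it was not used to pair libraries. Deviations of same-numbered libraries correlated at 0.01 over 6050 genes and at 0.50 over the 17 V-ATPase genes. The subunit a and e shares of the leading gene moved alike in same-numbered libraries. The 17 genes share the same 4 libraries and are not replicates, so neither value can show a pairing for them. Keeping overlapping exons gave Vha55 -0.062, and centring the libraries gave Vha26 0.0083.

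With each library left out in turn, the log2 change changed sign in 11 genes. It ranged from -0.012 to 0.15 in Vha68-2, -0.076 to 0.077 in Vha55, -0.11 to 0.053 in Vha26, -0.079 to 0.00053 in Vha14-1, -0.12 to 0.54 in Vha13 and -0.060 to 0.24 in Vha100-1. It ranged from -0.18 to 0.26 in Vha100-2, -0.027 to 0.11 in Vha16-1, -0.54 to 0.14 in VhaPPA1-1, -0.37 to 0.20 in VhaAC39-1 and -0.43 to 0.21 in VhaAC45. VhaSFD kept its sign (0.20 to 0.47), as did VhaM9.7-b (-0.30 to -0.18) and VhaM9.7-c (-0.64 to -0.06). A group left with 1 library was assumed to vary like the other.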
